A study of Mus musculus with 8 samples.

Results

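The Schlafen family was followed through sorted myeloid cells of MC38 tumors and blood, as the unique molecular identifiers (UMIs) of 6 genes, Slfn1, Slfn2, Slfn4, Slfn5, Slfn8 and Slfn9. They were 6 of the 10 genes with a symbol starting in Slfn among the 32285 genes counted. The members, Slfn4 above all, were chosen by measured values of these same data, namely the higher level of Slfn4 in irradiated than in control tumors of Ythdf2-cKO mice. The comparison of irradiated with control tumors is therefore given as a description, and nothing is read from the members' place in it.

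Schlafen genes, named after the German word for sleep, are found in mammals and are induced by interferon and during the differentiation of immune cells. The mouse proteins share an N-terminal core. The short members Slfn1 and Slfn2 hold little more than this core, Slfn4 is of intermediate length, and the long members Slfn5, Slfn8 and Slfn9 carry a C-terminal part that resembles a helicase. In mice Slfn2 keeps T cells and monocytes in quiescence and protects transfer RNA from cleavage, and Slfn4 is known as an interferon-responsive gene of macrophages and of myeloid-derived suppressor cells (MDSCs).

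The cells carried the surface phenotype of monocytic MDSCs (CD45+CD11b+Ly6Chi) and came from mice bearing tumors of MC38, a mouse colon carcinoma line. WT mice were Ythdf2 fl/fl, and Ythdf2-cKO mice were Ythdf2 fl/fl with Cre expressed from the Lyz2 gene, which is active in monocytes, macrophages and neutrophils. YTHDF2 is a protein that binds m6A-modified mRNA and directs it to decay. Tumors were left untreated (control) or received 20 Gy of ionizing radiation (IR), and tumor and blood cells were taken 3 days later. Cells of both genotypes were told apart by hashtag antibodies (B0301 for WT and B0302 for cKO) inside each of 4 droplet libraries, for 8 groups in all. A group came from 5 pooled mice without replicates, so differences between groups had no replicate check, and all intervals are 95% intervals that cover counting error only.

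After filtering, the 8 groups held 2157 to 4812 cells and 19220731 to 24676181 gene UMIs, with medians of 5951 to 8374 UMIs per tumor cell and 2805 to 3152 per blood cell. The genotype labels could not be checked on Ythdf2 itself, since 3′ tags need not cover the deleted part, and its tags were more frequent in cKO (303 to 373 CPM, the usual scaling of a gene's UMIs to all gene UMIs of its group) than in WT (32.5 to 55.6 CPM). Lyz2, the gene that carries Cre, stood at 5628 to 13981 CPM in WT and 82.8 to 139 CPM in cKO, and its neighbour Lyz1 at 3.54 to 10.8 CPM in WT and 112 to 248 CPM in cKO. The tumor libraries stood apart in their barcodes. They shared 12558 of the barcodes with at least 500 UMIs, against 24 to 46 for any other pair of libraries, and 57.4% of the filtered barcodes in tumor control and 38.5% in tumor IR had under 20 hashtag UMIs and were left out. Of the shared barcodes, 274 carried hashtags in both tumor libraries and 33 were kept in both. The origin of the sharing was not tested.

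All 6 members lie in 1 cluster on chromosome 11. In GENCODE vM21 (GRCm38, the mm10 build) they span 82951349 to 83190216, which is 239 kb, and all are protein-coding. In that order stand Slfn5 (82951349-82964840, plus strand, 2652 coding bases), Slfn9 (82978390-82991830, minus strand, 2730 coding bases), Slfn8 (83002158-83020810, minus strand, 2730 coding bases), Slfn2 (83065112-83070678, plus strand, 1134 coding bases), Slfn1 (83116849-83122670, plus strand, 1011 coding bases) and Slfn4 (83175186-83190216, plus strand, 1806 coding bases). Slfn8 and Slfn9 share sequence with each other and with the pseudogene Slfn10-ps between Slfn8 and Slfn2. Of the 91-base words in the last 500 bases of their transcripts, 9.25% (110 of 1189) in Slfn8 and 9.59% (118 of 1230) in Slfn9 also occurred in the other or in Slfn10-ps, so counts of this pair are less certain. Slfn1, Slfn2, Slfn4 and Slfn5 shared no such word with another gene.

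The promoter windows of Slfn4 and of the long members are shown because Schlafen genes are known to be induced by interferon. Promoters of interferon-induced genes often hold an interferon-stimulated response element (ISRE). Each window runs from 250 bases before to 50 bases after the RefSeq start (GRCm38.p6). Slfn4 is at chr11:83174936-83175235 (plus strand), Slfn5 at chr11:82951852-82952151 (plus strand), Slfn8 at chr11:83020761-83021060 (minus strand) and Slfn9 at chr11:82991781-82992080 (minus strand). Capitals mark the letters GAAANNGAAA of the ISRE, searched on both strands.
Slfn4: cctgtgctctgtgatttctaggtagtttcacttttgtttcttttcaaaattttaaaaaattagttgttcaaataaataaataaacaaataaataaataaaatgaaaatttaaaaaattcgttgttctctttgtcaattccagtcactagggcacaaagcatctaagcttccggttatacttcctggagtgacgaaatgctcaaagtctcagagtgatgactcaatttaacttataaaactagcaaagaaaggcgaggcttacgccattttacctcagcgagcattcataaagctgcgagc
Slfn5: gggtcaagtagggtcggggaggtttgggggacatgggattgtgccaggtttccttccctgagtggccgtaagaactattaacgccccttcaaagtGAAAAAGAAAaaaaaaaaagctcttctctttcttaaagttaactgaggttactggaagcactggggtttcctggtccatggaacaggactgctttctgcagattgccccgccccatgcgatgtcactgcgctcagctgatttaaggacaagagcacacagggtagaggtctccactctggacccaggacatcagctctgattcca
Slfn8: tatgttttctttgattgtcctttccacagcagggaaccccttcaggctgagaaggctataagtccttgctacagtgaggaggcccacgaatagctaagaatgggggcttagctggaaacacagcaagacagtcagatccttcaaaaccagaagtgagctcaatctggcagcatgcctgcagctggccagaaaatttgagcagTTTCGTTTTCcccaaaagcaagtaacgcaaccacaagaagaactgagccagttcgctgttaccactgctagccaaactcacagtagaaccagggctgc
Slfn9: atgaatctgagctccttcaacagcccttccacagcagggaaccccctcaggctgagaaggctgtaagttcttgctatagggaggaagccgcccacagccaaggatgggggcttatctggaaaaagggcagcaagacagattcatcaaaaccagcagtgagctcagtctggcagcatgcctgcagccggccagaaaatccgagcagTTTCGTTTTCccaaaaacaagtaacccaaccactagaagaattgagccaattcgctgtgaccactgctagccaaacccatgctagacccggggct

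The letters of the ISRE were found in the windows of the long members alone. In Slfn5 they stood 155 to 146 bases before the RefSeq start on the gene's own strand. The GENCODE start of Slfn5 (82951349) lies before this whole window (82951852-82952151), so the letters lie inside the gene as annotated there. In Slfn8 they stood 48 to 39 bases before the start and in Slfn9 45 to 36 bases before it, both on the opposite strand, and the windows of Slfn8 and Slfn9 were identical at 246 of 298 aligned columns (82.6%). A further start of Slfn8 placed the same letters 136 to 127 bases before it. The windows of Slfn1, Slfn2 and Slfn4 did not hold these letters, and none of the 6 members held TTCNNNGAA, the gamma-activated site (GAS), in its window. Only exact letters were searched, so a window without them may still hold a near match. Of all 32851 windows of this length, 3.44% held the ISRE letters and 8.30% held the GAS letters.

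Slfn4 was the member that differed most between groups. In tumor control it stood at 18.0 CPM in WT (361 UMIs) and 5.61 CPM in cKO (132 UMIs), and in tumor IR at 282 CPM in WT (5740 UMIs) and 231 CPM in cKO (5695 UMIs). In blood control it stood at 146 CPM in WT and 136 CPM in cKO, and in blood IR at 193 CPM in WT and 200 CPM in cKO. The order of levels thus ran from the control tumors, through blood, to the irradiated tumors, and the counting intervals overlapped only between the genotypes in blood control and between the genotypes in blood IR. The share of cells with at least 1 Slfn4 UMI was 7.61% in WT and 3.71% in cKO for tumor control, 47.2% and 45.7% for tumor IR, 32.3% and 34.4% for blood control, and 41.5% and 45.1% for blood IR. After each cell was thinned to 1500 UMIs, leaving out 113 to 317 shallower cells per tumor group, the shares in tumor control were 2.54% (1.95% to 3.26%) in WT and 0.881% (0.523% to 1.39%) in cKO. In tumor IR the thinned shares were 28.1% (26.5% to 29.8%) in WT and 23.8% (22.4% to 25.3%) in cKO.

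RNA outside cells also held the members. In barcodes of 10 to 100 UMIs, which stand for free RNA, Slfn4 made up 260 CPM in tumor control and 493 CPM in tumor IR, and 637 and 1138 CPM in blood control and blood IR. These Slfn4 levels were above those of the kept cells in every library. Kept tumor IR barcodes that also occurred in the tumor control matrix held 0.589 times their own gene UMIs there, in either genotype. Slfn4 stood at 281 CPM (WT) and 225 CPM (cKO) in those counts. The low-UMI barcodes of tumor control therefore cannot be taken as free RNA of control tumors alone. In tumor control the free RNA also held more than the kept cells of either genotype for Slfn1 (66.9 CPM), Slfn2 (866 CPM), Slfn5 (144 CPM) and Slfn8 (42.6 CPM), and Slfn9 stood there at 20.5 CPM. In tumor IR it held less than the cells for Slfn1 (125 CPM), Slfn2 (971 CPM), Slfn5 (217 CPM), Slfn8 (69.2 CPM) and Slfn9 (23.6 CPM). In blood only Slfn1 after IR (582 CPM) was above the cells among these 5 members. The part of free RNA in the differences between groups was not tested. As a measure of what free RNA adds, Fibroblast-like cells were taken to lack the gene. Thinned to 1500 UMIs, they had Slfn4 in 0 of 113 WT and 0 of 247 cKO cells of tumor control. These counts allow shares of up to 2.65% and 1.21%. In tumor IR, Slfn4 was found in 3.64% of 55 thinned WT cells. Unthinned, at medians of 25710, 27775.5 and 18395 UMIs per cell, the shares were 0.870%, 0.400% and 15.2%. The tumor IR shares of Slfn4 over all cells were above this background after thinning. Those of tumor control were within what the counts of 0 allow, while the Slfn4 levels there, 0.300 and 0.139 CPM in Fibroblast-like cells of WT and cKO, were below those over all cells. Fibroblast-like cells were deeper than tumor IR cells over all (medians of 5951 UMIs in WT and 6095.5 in cKO). Thinning therefore takes more of any free RNA from them, and this background may be too low for shallower cells.

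**Figure D1:**
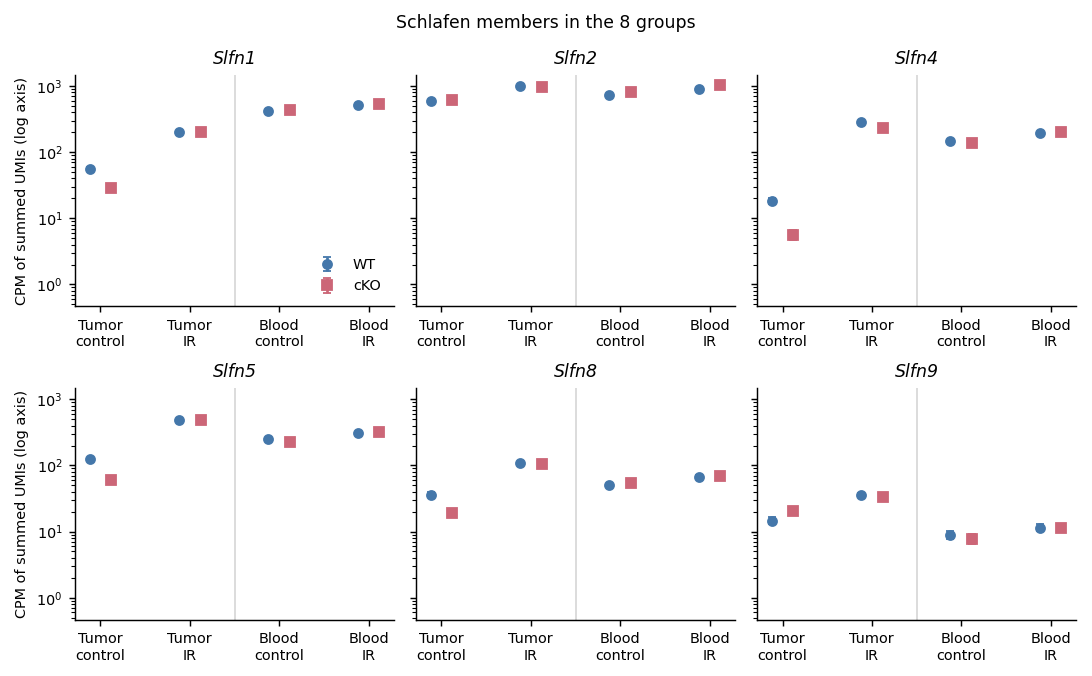
CPM of the 6 Schlafen members (log axis) in the 8 groups, with WT as circles and cKO as squares and bars for the exact Poisson interval, mostly hidden by the points. Slfn4 covered the widest range, from 5.61 CPM in control cKO tumors to 282 CPM in irradiated WT tumors, and Slfn2 the narrowest, from 593 to 1019 CPM.

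Of the short members, Slfn1, first described as a brake on T cell growth, stood at 55.4 CPM in WT and 28.9 CPM in cKO for tumor control and at 204 and 202 CPM for tumor IR. In blood Slfn1 stood at 426 CPM in both genotypes of the control and at 508 CPM in WT and 541 CPM in cKO after IR. Slfn1 was thus higher in every blood group than in any tumor group. Slfn2, which keeps immune cells quiescent, stood at 593 CPM in WT and 610 CPM in cKO for tumor control, 993 and 982 CPM for tumor IR, 730 and 823 CPM for blood control, and 900 and 1019 CPM for blood IR. Thinned to 1500 UMIs, a Slfn2 UMI was found in 54.7% (WT) and 55.9% (cKO) of the tumor control cells and in 73.4% and 70.3% of the tumor IR cells. The same share in Fibroblast-like cells was 3.54% (WT) and 3.24% (cKO) in tumor control and 1.82% in WT tumor IR.

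Of the long members, Slfn5, a nuclear Schlafen protein, stood at 127 CPM in WT and 60.6 CPM in cKO for tumor control and at 487 and 485 CPM for tumor IR. In blood Slfn5 stood at 251 and 228 CPM in the control and at 307 and 315 CPM after IR. The irradiated tumors were the highest groups for Slfn5, and the control tumors the lowest. Slfn8 had the same order of tissues, with 36.3 CPM in WT and 19.4 CPM in cKO for tumor control, 108 and 105 CPM for tumor IR, and 49.9 to 70.4 CPM over the 4 blood groups. Slfn9 had another order. It stood at 14.6 CPM in WT and 20.5 CPM in cKO for tumor control, 35.6 and 33.7 CPM for tumor IR, and only 7.70 to 11.5 CPM in blood. Of the Slfn genes that are no members, Slfn3 stood at 1.05 to 3.15 CPM (21 to 72 UMIs per group), Slfn14 and the antisense gene Slfn5os held 3 UMIs or fewer in every group, and Slfnl1 held none, which allows a level of up to 0.156 CPM in the shallowest group.

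Between irradiated and control tumors, the question was how the family stood 3 days after IR in each genotype. Ratios are log2 ratios of CPM with 1 UMI added. In WT, 5 of 6 members were at least 2-fold higher after IR, where 2.6% of the 10149 genes measured were, and in cKO, 4 of 6 members, where 5.13% of 10673 genes were. Since this contrast chose Slfn4, the counts are printed beside the background and not read against it. The median over the members was 1.72 in WT and 2.62 in cKO, and over all genes -0.13 and -0.18. In WT the ratios were 3.96 for Slfn4 (3.81 to 4.12), 1.94 for Slfn5 (1.88 to 2.01), 1.88 for Slfn1 (1.78 to 1.98), 1.57 for Slfn8 (1.45 to 1.69), 1.28 for Slfn9 (1.09 to 1.49) and 0.74 for Slfn2 (0.71 to 0.78). Slfn2 was thus the member outside the 2-fold limit in WT, with Slfn9 the nearest inside it.

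In cKO tumors the ratio of Slfn4 was 5.35 (5.11 to 5.62), a 40.8-fold higher level than in control, against 15.6-fold in WT. Slfn4 ranked 1st of 10673 genes in cKO and 11th of 10149 in WT. Slfn5 had a ratio of 3.0 (2.92 to 3.08), Slfn1 of 2.81 (2.69 to 2.93) and Slfn8 of 2.43 (2.29 to 2.58) in cKO. Slfn9 (0.71, 0.55 to 0.88) and Slfn2 (0.69, 0.66 to 0.72) were below the 2-fold limit. The ratios of Slfn4, Slfn5, Slfn1 and Slfn8 were larger in cKO than in WT by 1.39, 1.06, 0.93 and 0.87, and those of Slfn9 and Slfn2 smaller by 0.57 and 0.06. These differences had no test, since each genotype was 1 pool per group. TMM scaling, which moved the median of all genes to 0.01 in both genotypes, gave Slfn4 4.10 in WT and 5.54 in cKO. It also moved the share of genes past the limit that were higher after IR from 44.6% to 62.9% in WT and from 23.1% to 36.4% in cKO, and the symmetric hashtag margin gave 58.9% in WT.

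Whether a barcode shared by the tumor matrices was 1 cell was not tested, and the control or IR label of a tumor cell rests on the library in which its barcode carried hashtags. When the kept barcodes of each tumor group were counted in the other tumor matrix, the ratio of Slfn4 was 3.89 in WT (4.06 in their own matrix) and 5.26 in cKO (5.66 in their own matrix). Of the other members Slfn8 in WT shifted most (1.79 against 1.56). Without the barcodes that carried hashtags in both libraries, Slfn4 had a ratio of 4.0 in WT and 5.67 in cKO.

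**Figure D2:**
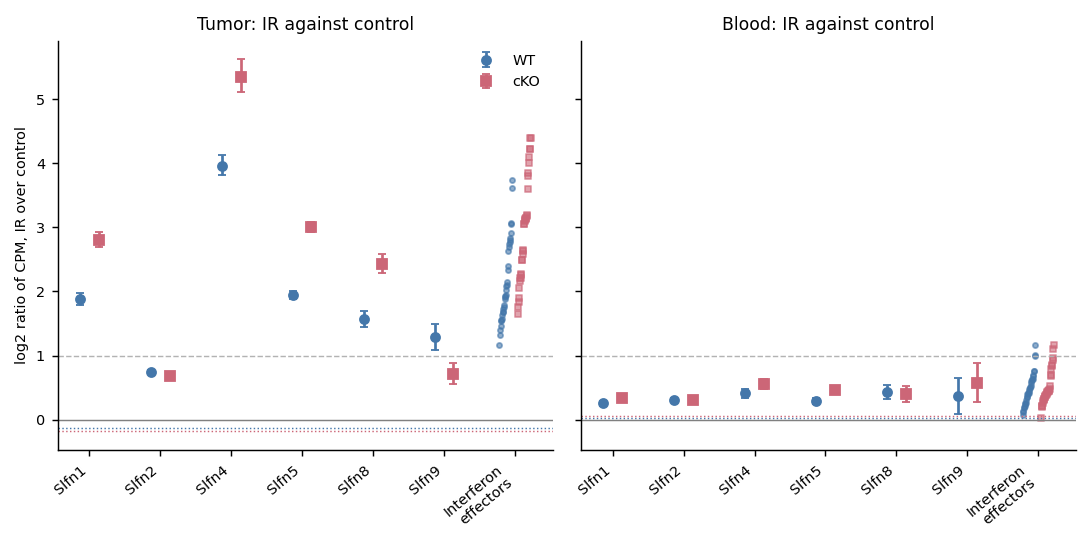
Log2 ratio of CPM, IR over control, for the 6 members and for the measured interferon effectors (small symbols, sorted) in tumor (left) and blood (right). Bars are 95% counting intervals, the dashed line is the 2-fold limit and dotted lines are the medians of all genes. In tumor Slfn4 reached 3.96 in WT and 5.35 in cKO, and in blood no member reached 1.

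After tumor IR, the members stood in blood at 1.19 to 1.49 times their control level. None of 6 members was at least 2-fold higher in WT, where 0.348% of 9780 genes were, and none in cKO, where 0.431% of 9512 genes were. For Slfn4 the blood ratio was 0.41 in WT (0.34 to 0.47) and 0.56 in cKO (0.49 to 0.63). The other members lay between 0.25 (Slfn1) and 0.43 (Slfn8) in WT and between 0.31 (Slfn2) and 0.58 (Slfn9) in cKO. The counting interval of every member was above 0, and the median over the members was 0.33 in WT and 0.43 in cKO against 0.03 and 0.06 over all genes.

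The genotypes were compared within each library. In control tumors 2 of 6 members, Slfn4 and Slfn5, were at least 2-fold lower in cKO than in WT, where 1.31% of 10661 genes were. The ratios of cKO over WT were -1.68 for Slfn4 (-1.98 to -1.39), -1.06 for Slfn5 (-1.16 to -0.97), -0.94 for Slfn1 (-1.08 to -0.80), -0.90 for Slfn8 (-1.08 to -0.73), 0.04 for Slfn2 (0.0048 to 0.08) and 0.49 for Slfn9 (0.28 to 0.71). Slfn5 was the member just inside the limit and Slfn1 the one just outside it. The control cKO group also enters the IR comparison above, so a low level there and a high IR ratio are not independent. In irradiated tumors the ratio of Slfn4 was -0.29 (-0.34 to -0.24), and those of the other members lay between -0.08 and -0.01 with counting intervals that included 0. In blood the ratios lay between -0.21 (Slfn9) and 0.17 (Slfn2) for control and between 0.0022 (Slfn9) and 0.18 (Slfn2) for IR.

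The difference of Slfn5 in control tumors depended on which barcodes counted as WT. Of the 2524 WT cells of tumor control, 1529 had B0301 at 1 to 4 times B0302, and these held 158 CPM of Slfn5, 66.6 CPM of Slfn1 and 20.7 CPM of Slfn4. The 995 cells with a clear margin held 88.9, 42.1 and 14.9 CPM. Lyz2 was at WT levels in both sets (7217 and 6510 CPM). With the clear cells alone, cKO over WT was -1.40 for Slfn4, -0.55 for Slfn5, -0.54 for Slfn1 and -0.54 for Slfn8, so that Slfn4 remained past the limit and Slfn5 did not. The share of genes past the limit that were higher in cKO was 73.0%, 61.8% under TMM scaling and 85.4% with the clear margin.

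Between tissues, the question was how cells in untreated tumors differed from those in the blood. In WT, 2 of 6 members, Slfn4 and Slfn1, were at least 2-fold lower in control tumors than in control blood, where 15.6% of 10387 genes were. In cKO 4 of 6 members were, where 16.5% of 10753 genes were. The ratio of tumor over blood was -3.01 in WT and -4.59 in cKO for Slfn4, and -2.94 and -3.88 for Slfn1. Slfn5 stood at -0.99 in WT, just outside the limit, and at -1.91 in cKO, and Slfn8 at -0.46 and -1.46. Slfn9 alone was higher in the tumor, by 0.71 in WT and 1.41 in cKO. Slfn2 was lower in the tumor, at 593 against 730 CPM in WT and 610 against 823 CPM in cKO. Without Fibroblast-like cells the values of Slfn9 were 0.04 and 0.69, and Slfn8 in cKO stood at -0.99. In that setting Slfn2 was also higher in tumor than in blood in cKO, but not in WT.

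The sorted cells were not of 1 type. Clustering without the members and the interferon lists gave 23 clusters, which were named by markers as X-like where at least 3 markers were raised, unless markers of another type were more frequent among the 10 leading genes of the cluster. That condition left cluster 0 (5 macrophage markers raised, none of them among its leading genes, where 1 gene of the carcinoma list, Cdh1, stood) and cluster 6 (7 NK cell markers raised, with T cell genes among the leading ones) unnamed, so cells with macrophage markers were not all counted as Macrophage-like. Blood cells were mostly Neutrophil-like (2608 to 3389 cells per group), with Monocyte-like (381 to 631 cells) and Nonclassical monocyte-like cells (341 to 699 cells). Tumor cells were mostly Macrophage-like (cluster 2, with Arg1 and Spp1, and cluster 3, with Folr2 and Mrc1) or in the unnamed clusters 0 (C1qa, Trem2) and 1 (Vcan, Plac8). They also included Fibroblast-like cells (47 to 250 per tumor group), which a CD45+ sort should leave out. This name rests on 4 raised markers (Col1a1, Col1a2, Col3a1 and Dcn). The same cluster had 5 cycling markers raised and a median of 26150 UMIs per cell. Whether its cells were fibroblasts or MC38 carcinoma cells was not tested. In the group sums above, fewer cells of a type and less RNA per cell cannot be told apart. Levels are therefore given per class, over classes with at least 50 cells in a group.

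In blood Slfn4 was found mostly in Neutrophil-like cells. These cells held 92.1% to 93.4% of the Slfn4 UMIs of the blood groups, with 38.0% to 40.1% of all gene UMIs. Slfn4 stood at 337 CPM in WT and 317 CPM in cKO in the Neutrophil-like cells of control blood and at 447 and 491 CPM after IR. In Monocyte-like cells of blood it stood at 16.5 to 19.2 CPM and in Nonclassical monocyte-like cells at 16.4 to 37.5 CPM. The share of cells with a UMI, thinned, was 30.1% to 41.3% in Neutrophil-like cells and 1.77% to 2.52% in Monocyte-like cells. The NK cell-like cells of blood, which should lack the gene, had 0% to 2.83%, a range that holds the Monocyte-like shares. These NK cell-like groups had only 53 to 206 cells, and they were shallower (cluster medians of 3283.5 against 11600 UMIs). Their shares therefore do not show whether the Monocyte-like share was background.

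In tumors, Neutrophil-like cells were nearly absent before IR, with 17 WT and 25 cKO cells, and numbered 325 and 248 after IR. They held the highest Slfn4 level of any named class, 1682 CPM in WT and 1507 CPM in cKO, but only 19.1% and 13.1% of the Slfn4 UMIs of irradiated tumors. The summed neutrophil markers (11 genes, of which at most 2 were at 0 in a tumor group) stood at 417 and 358 CPM in tumor control and at 2233 and 1498 CPM in tumor IR. Without these cells the IR ratio of Slfn4 was 3.73 in WT and 5.46 in cKO. Macrophage-like cells held the largest part of tumor Slfn4, 38.0% and 34.8% of the UMIs in control and 49.0% and 51.5% after IR, and cluster 1 held 20.4% to 28.5%.

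**Figure D3:**
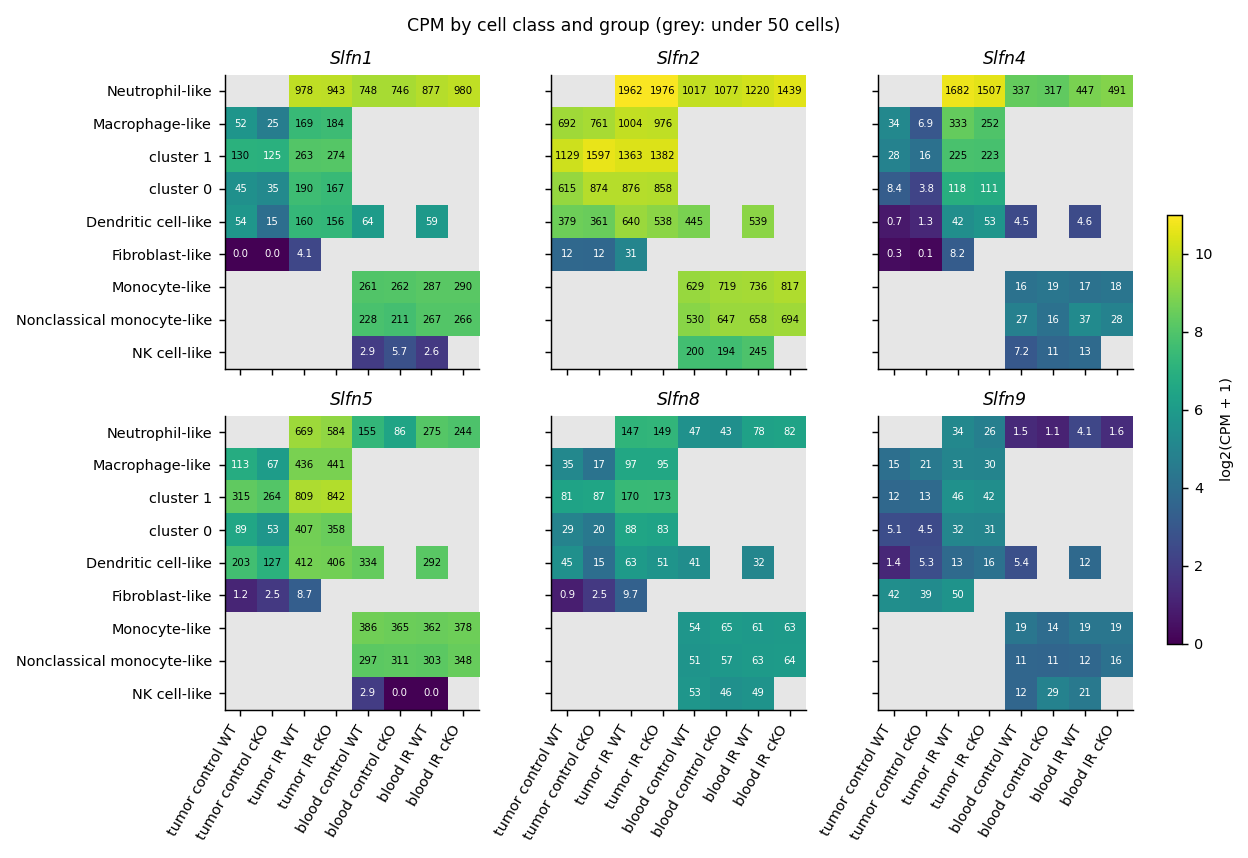
CPM of each member by cell class (rows) and group (columns), printed in each cell and coloured by log2(CPM + 1), with grey for classes under 50 cells. Slfn4 was highest in Neutrophil-like cells of irradiated tumors (1682 CPM in WT), and Slfn9 was the highest member in Fibroblast-like cells (42 CPM in control WT tumors).

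The higher level of Slfn4 after IR was found in each of the tumor clusters 0 to 3. In cluster 2 Slfn4 stood at 63.4 CPM in WT and 33.5 CPM in cKO before IR and at 344 and 261 CPM after it, which are ratios of 2.44 and 2.96. Cluster 3 gave ratios of 3.65 in WT and 4.88 in cKO, cluster 0 gave 3.78 and 4.78, and cluster 1 gave 2.98 and 3.74. Each ratio was larger in cKO, but in clusters 2 and 3 the counting intervals of WT and cKO overlapped. The control levels rested on few UMIs, as all control tumor cells together held 361 Slfn4 UMIs in WT and 132 in cKO. All Macrophage-like cells had ratios of 3.28 in WT and 5.18 in cKO, but the clusters behind this class differed between groups. Cluster 3, where Slfn4 was lowest (4.94 CPM in WT and 2.11 CPM in cKO before IR), made up 542 of the 666 Macrophage-like cells in control cKO tumors and 212 of 481 in control WT tumors, and 136 of 1610 and 99 of 1169 after IR. Within clusters 0 to 3, cKO over WT in control tumors lay between -1.14 and -0.78 for Slfn4.

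Slfn1 and the long members Slfn5 and Slfn8 were higher after IR within clusters too, and in cKO by less in each of clusters 0 to 3 than over all tumor cells. Over clusters 0 to 3 the lowest and highest IR ratios of Slfn1 were 0.97 and 2.07 for WT and 1.13 and 2.25 for cKO. Slfn5 lay between 1.32 and 2.18 in WT and between 1.31 and 2.75 in cKO, and Slfn8 between 0.89 and 1.58 and between 0.99 and 2.04. Of these clusters, cluster 1 held the highest Slfn5 level in both genotypes, 315 CPM in WT and 264 CPM in cKO before IR and 809 and 842 CPM after it. The lower level in control cKO than in control WT tumors was also smaller within clusters. In cluster 2, Slfn5 stood at 180 CPM in WT and 182 CPM in cKO, and in cluster 3 at 46.4 and 46.2 CPM. Over clusters 0 to 3 the ratio of cKO over WT lay between -0.36 and -0.03 for Slfn1, between -0.75 and 0.02 for Slfn5 and between -0.58 and 0.09 for Slfn8.

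Slfn2 moved in the opposite direction in some clusters. In control tumors it was higher in cKO than in WT in each of clusters 0 to 3, by 0.40 to 0.51, for example at 1597 against 1129 CPM in cluster 1. Its IR ratio was 0.22 in WT and -0.21 in cKO in cluster 2, 0.27 and -0.21 in cluster 1, and -0.22 and -0.98 in cluster 3. Over all cKO tumor cells Slfn2 had a ratio of 0.69, and without Fibroblast-like cells 0.24. Those cells held 30.5% of all gene UMIs but 0.585% of the Slfn2 UMIs in control cKO tumors, and 5.24% of gene UMIs after IR.

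Slfn9 was the highest member in Fibroblast-like cells. In control tumors these cells held 47.6% of Slfn9 UMIs in WT and 57.8% in cKO, with 16.7% and 30.5% of all gene UMIs, and after IR 13.4% and 11.4% of Slfn9 with 9.61% and 5.24% of all gene UMIs. Slfn9 stood there at 41.7 CPM in WT and 38.9 CPM in cKO, while Slfn1 had 0 UMIs, which allows up to 0.899 CPM in WT and 0.418 CPM in cKO, and Slfn5 stood at 1.20 and 2.51 CPM. Slfn2 was also found there, at 12.3 CPM in WT and 11.7 CPM in cKO before IR and at 31.2 CPM in WT after it, when Slfn9 stood at 49.6 CPM. The summed fibroblast markers (6 genes) stood at 454 CPM in WT and 696 CPM in cKO in tumor control and at 245 and 121 CPM in tumor IR. Without Fibroblast-like cells, the IR ratio of Slfn9 was 1.89 in WT and 1.33 in cKO, so that it passed the limit in both genotypes, and that of Slfn4 was 3.85 and 4.91. In the same setting cKO over WT in control tumors was -1.42 for Slfn4 and -0.82 for Slfn5.

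**Figure D4:**
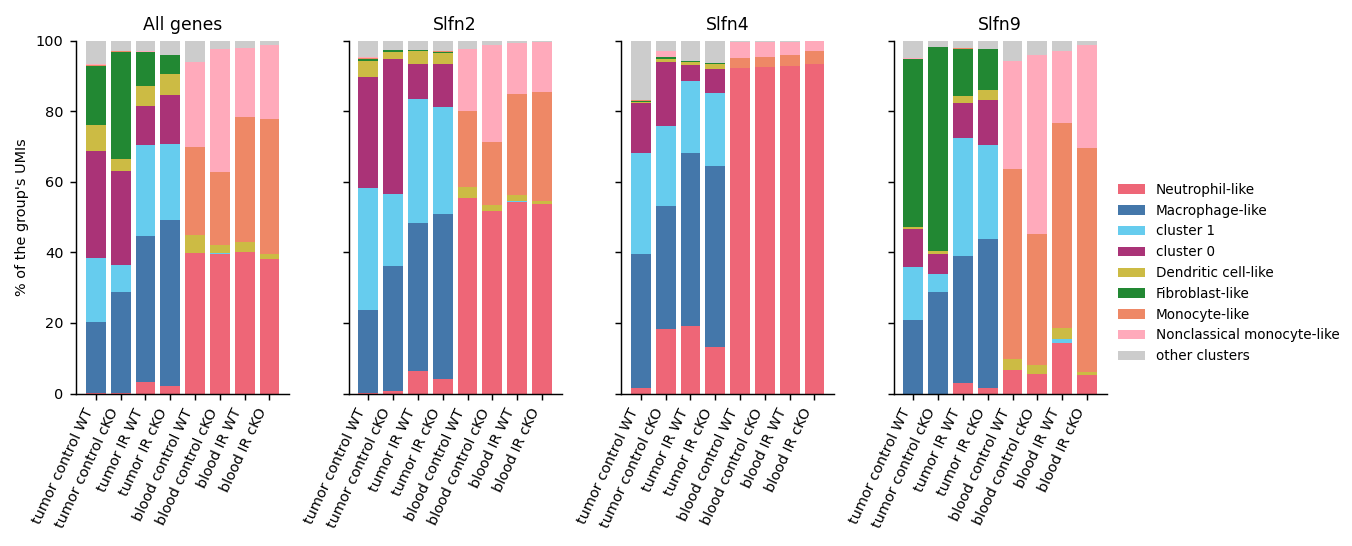
Percent of the UMIs of a group that each cell class holds, for all genes and for Slfn2, Slfn4 and Slfn9, with 1 bar for each of the 8 groups. Neutrophil-like cells hold 92.1% to 93.4% of Slfn4 in blood, and Fibroblast-like cells hold 47.6% and 57.8% of Slfn9 in control tumors.

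In blood Neutrophil-like cells, Slfn5 and Slfn8 differed more with IR than over all blood cells. Slfn5 stood at 155 CPM in WT and 85.7 CPM in cKO in control and at 275 and 244 CPM after IR, ratios of 0.83 and 1.51. Slfn8 had ratios of 0.73 and 0.93, and Slfn4 of 0.41 and 0.63. In control blood 1157 of the 2608 cKO Neutrophil-like cells lay in cluster 15, which held 61 WT cells there and 54 and 85 cells after IR, and other clusters held most of this class in the other groups. In the Monocyte-like cells of blood, IR ratios lay between -0.09 and 0.05 for Slfn5 and between -0.06 and 0.03 for Slfn4.

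In single tumor cells the members were found together more often after IR. Thinned to 1500 UMIs, cells with no UMI of any member made up 37.9% (WT) and 38.4% (cKO) of control tumors, against 13.3% and 14.2% of irradiated tumors. Cells with 3 members made up 4.03% in WT and 2.54% in cKO before IR and 20.1% and 18.5% after it, and cells with 4 members 1.02% and 0.440% before and 8.16% and 7.72% after. In irradiated WT tumors Slfn4 was found in 36.8% of the 1216 cells with Slfn5 and in 21.3% of the 1650 cells without it. In cKO the shares were 33.7% of 1455 and 17.1% of 2030 cells. Within Macrophage-like cells they were 46.1% and 22.2% in WT and 40.7% and 19.7% in cKO, and within cluster 1, 23.6% and 17.2% in WT and 26.3% and 10.6% in cKO. Cells of 1 pool share their library and free RNA, and these shares are a description. Higher levels of the members after IR raise such counts without any link between members, and expected counts were not computed.

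**Figure D5:**
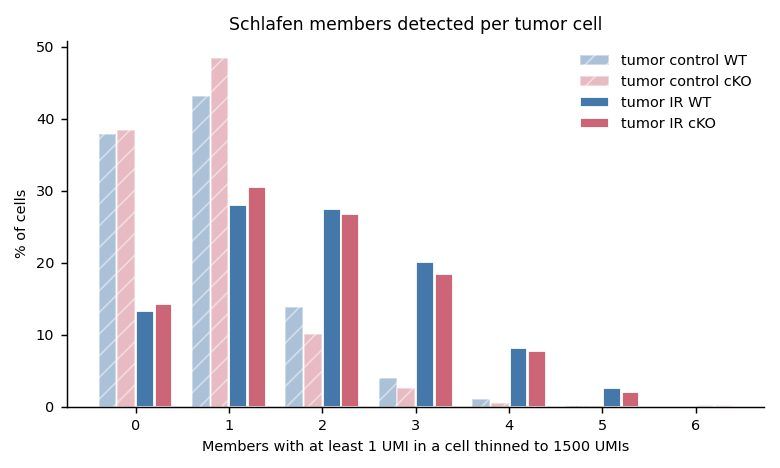
Percent of tumor cells (vertical axis) by the number of Schlafen members with at least 1 UMI after thinning to 1500 UMIs (horizontal axis), in control (hatched) and irradiated (filled) WT and cKO tumors. Cells without a member were 37.9% (WT) and 38.4% (cKO) of the control tumors and 13.3% and 14.2% of the irradiated ones.

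The family was set beside the interferon pathway, in which type I and type II interferons (the ligands) act through their receptors and transcription factors on effector genes. The lists were chosen with earlier results of these data known. All 34 interferon effectors in the files were at least 2-fold higher in irradiated than in control tumors in both genotypes, with a median of 1.98 in WT and 3.08 in cKO. Among them Isg15, a ubiquitin-like modifier, stood at 402 CPM in WT and 246 CPM in cKO before IR and at 2125 and 2170 CPM after it. Rsad2 (viperin) had ratios of 2.77 and 4.09, and Ifi27l2a of 1.67 and 2.65. In control tumors 12 of 34 effectors were at least 2-fold lower in cKO than in WT (median -0.85), and in irradiated tumors none were in either direction (median -0.04). In blood 2 of 33 effectors measured were at least 2-fold higher after IR in each genotype, with medians of 0.44 and 0.43.

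The upstream parts of the pathway differed less. Of 12 receptors and signal transducers, 2 were at least 2-fold higher after IR in WT tumors (median 0.35) and 5 in cKO tumors (median 0.71). The transcription factor Irf7 had ratios of 2.34 and 3.32, and the interferon-gamma receptor chain Ifngr1 of -0.54 and 0.09. Of 16 genes of the interferon-gamma group, 6 were higher and 1 lower in WT (median 0.80) and 11 were higher in cKO (median 1.21). The chemokine Cxcl10 had ratios of 1.27 and 1.0 and the GTPase Gbp2 of 0.30 and 1.19, while the chemokine Cxcl9 had -1.22 and -0.57. Of 17 ligand genes, 1 reached the minimum of 100 UMIs in WT and 2 in cKO. Ifng stood at 14.5 CPM in control and 9.34 CPM in irradiated WT tumors and at 1.53 and 6.08 CPM in cKO tumors, and Ifnb1 at 1.10 and 0.295 CPM in WT and 4.04 and 1.82 CPM in cKO.

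Over 48 sums, each of a named class or an unnamed cluster in 1 group, the genes whose log2 CPM followed Slfn4 most closely among 7555 genes were Cmpk2 (Pearson's r = 0.87), Gm13822 (0.84), Rtp4 (0.82), Ddx58 (0.82), Trim30d (0.80), Resf1 (0.80), Parp10 (0.79) and Cd300lf (0.79). Cmpk2, Rtp4 and Ddx58 were on the list of interferon effectors. Among the members, r was 0.71 for Slfn4 with Slfn1 and with Slfn8, 0.62 with Slfn2, 0.56 with Slfn5 and 0.11 with Slfn9. Slfn1 followed Slfn5 (0.85) and Slfn2 (0.85) more closely than it followed Slfn4, and Slfn9 had r between -0.25 and 0.11 with every other member. The sums come from 4 libraries and share their depth and free RNA, so r describes these points and carries no test.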

How the data were processed

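The authors sorted and pooled cells of 5 mice per genotype, tissue and treatment, stained each genotype with its own hashtag, and sequenced 4 droplet libraries with 3′ chemistry. The deposited values were raw counts of UMIs per gene or hashtag and barcode, with no normalization, for all barcodes and not only for cells. The submitters' processing notes named Cell Ranger 6.0.1, Seurat 4.0.6 and mm10, while the matrix headers named Cell Ranger 4. The libraries held 51653956 to 87703837 gene UMIs. All replicate structure was 1 pool per group, so no test was run.

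From these counts, barcodes with at least 500 UMIs, 200 genes and at most 25% mitochondrial UMIs were kept where they had at least 20 hashtag UMIs. A barcode was WT where B0301 was at least B0302, and cKO where B0302 was at least 4 times B0301. The threshold that Scrublet set itself marked 0 to 3 barcodes per library and was not usable, so the 6% of barcodes with the highest scores were removed. Cells were clustered in scanpy 1.11.5 (1966 variable genes, 40 components, Leiden resolution 1.0) without the members, the interferon lists, Ythdf2, Lyz1 and Lyz2. A cluster was named where at least 3 fixed markers were raised at least 2-fold and found in at least 25% of its cells. It stayed unnamed where another type had more markers among the 10 leading genes by fold, or where its cells were far shallower than their library and no own marker was among these genes. Cluster names were rebuilt here, and an annotation by the authors was not used.

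UMIs were summed per group and scaled to CPM with exact Poisson intervals. Groups were compared as log2 ratios with 1 UMI added, scaled to depth, and conditional binomial (Clopper-Pearson) intervals, over genes with at least 100 UMIs in both groups together. Past the limit means a 2-fold difference. Shares of cells carry Clopper-Pearson intervals, and a count of 0 allows up to 3 counts. UMIs are counted molecules, and intervals and limits cover counting error only. The ratio was tested on simulated counts with known fold changes.

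Named were the members, every other Slfn gene, the 8 genes most like Slfn4, Ythdf2, Lyz2 and Lyz1, and the 3 genes with the most UMIs in tumor IR of each list. Of the genes that this rule names, 1 is not reported here. Genes of clusters and the cells used as a background were named beside them after their values were seen. The members and lists were chosen with earlier results of these data known. Alternatives covered hashtag, UMI, mitochondrial and doublet limits, TMM factors (edgeR 4.0.16, R 4.3.3), 5 added UMIs, 1 class only, thinning and clustering, and 3 were added after seeing the data (leaving out Fibroblast-like cells, tumor Neutrophil-like cells, or barcodes with hashtags in both tumor libraries). Python 3.11.15, numpy 2.4.6, scipy 1.17.1, pandas 2.3.3 and matplotlib 3.10.9 were used. Gene positions came from GENCODE vM21, another release than the authors' annotation. Promoters came from RefSeq (GRCm38.p6), which held a window for each of the 6 members, though its start of Slfn5 differed from that of GENCODE.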

Additional observations from a re-analysis of the deposited data

Results flagged for a closer look

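Slfn2 and Slfn9 differed in direction between the clusters of the same cKO tumors when IR was set against control. For Slfn2 the log2 ratio was below 0 in cluster 1 (-0.21), cluster 2 (-0.21), cluster 3 (-0.98) and cluster 4 (-0.58). It was above 0 in cluster 6 (0.84), which held NK cell markers and the T cell genes Trbc1, Trbc2, Cd3d and Cd3g, and in the Dendritic cell-like cluster 10 (0.76). For Slfn9 the ratio was -1.53 in cluster 3, which rested on 127 UMIs in control and 4 UMIs after IR, and it was 2.73 in cluster 0, 1.66 in cluster 1, 1.64 in cluster 10 and 1.39 in cluster 2. The counting intervals of these values did not include 0. Each cluster was 1 pool of mice per group, and the difference between clusters was not tested.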

How the results depend on the processing

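No member ratio past the 2-fold limit turned its direction. Among smaller ratios, Slfn2 in cKO turned between tissues. It was lower in control tumors than in control blood (610 against 823 CPM), but higher there without Fibroblast-like cells. Of the member ratios over all cells recomputed under the alternatives, 485 moved by less than the counting interval and 103 by more. Part of the 485 could not move, since leaving out tumor cells does not touch comparisons within blood. The symmetric margin likewise changes no comparison between cKO groups. In Macrophage-like cells under other clusterings, 55 moved by less and 17 by more. Slfn4 in WT tumors, 3.96 after IR, was 4.27 with the symmetric hashtag margin, 3.28 in the most frequent class alone and 3.73 without tumor Neutrophil-like cells. In cKO tumors, 5.35, it was 4.91 without Fibroblast-like cells and 5.67 without barcodes with hashtags in both tumor libraries. Members at least 2-fold lower in control cKO than WT tumors numbered 1 of 6 with the symmetric margin, where 1.18% of 10184 genes were. They also numbered 1 of 6 without Fibroblast-like cells, where 0.871% of 9418 genes were. In Macrophage-like cells they numbered 3 of 6 (Slfn4 -2.28, Slfn1 -1.09 and Slfn8 -1.01). Members higher after IR in cKO blood numbered 1 of 6 (Slfn5) in Neutrophil-like cells. For these settings of 1 class, the share over all genes was not computed, so the counts are not read further. Genes higher after IR in cKO tumors numbered 829 with TMM factors. With a minimum of 20 UMIs, 412 genes were higher in WT tumors, 147 in WT blood and 154 in cKO blood, and 264 were lower in control cKO tumors. The causes were not tested. Thinned to 1000 UMIs, Slfn4 was found in 23.6% of WT and 19.8% of cKO cells of irradiated tumors.

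The most frequent class differed between tumor and blood, so that setting gave no value for this comparison. No paired analysis was possible because each group was 1 pool without replicates. Depth limits Slfn3, Slfn14 and Slfn5os, and the free RNA and barcodes shared by the tumor libraries limit low levels in tumor control, of Slfn4 and also of Slfn1, Slfn2, Slfn5, Slfn8 and Slfn9.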
